A study of Mus musculus with 15 samples.

Results

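Xbp1 and Atf4 encode 2 transcription factors of the cellular stress responses, and their RNAs were followed over 15 arrays with 2 colours that compared brains of O377 mutant mice with wild-type brains. The genes were taken as the probes whose single gene symbol in the platform's annotation is Xbp1 or Atf4. This gave 2 of 9648 genes with a probe of their own, and 3 of 20205 probes, 1 for Xbp1 and 2 for Atf4, and 2 of these 3 were among the 8058 probes with enough values to be tested. The mutant RNA came from 5 numbered brains of mice homozygous for O377, a line known for a mutant allele of the lens crystallin gene Crybb2. It was hybridised on every array against the same wild-type RNA, pooled from 4 brains, which is therefore a single control sample. Mutant RNA was labelled with Cy5 on 7 arrays and with Cy3 on 8. The labels do not tell which of the 5 brains an array holds or whether they were pooled, and age, strain, sex and brain region are not stated.

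Xbp1 and Atf4 belong to separate arms of the unfolded protein response, which cells use when misfolded proteins gather in the endoplasmic reticulum (ER). The sensor IRE1 (gene Ern1) splices the Xbp1 messenger RNA, and the spliced form encodes an activator of genes for ER chaperones, ER-associated degradation and secretion. The sensor PERK (gene Eif2ak3) phosphorylates the translation factor eIF2, which lowers protein synthesis in general but raises translation of the Atf4 messenger RNA. Atf4 then activates genes of amino acid synthesis and transport. In the nervous system Atf4, also called CREB2, is known as well for its part in synaptic plasticity and memory. Much of the regulation of both factors therefore lies in splicing and translation, which an array probe for total RNA does not measure. The position of the Xbp1 probe is not stated, so spliced and unspliced forms cannot be told apart.

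The deposited values are log ratios of the 2 channels, taken here as log2, with a direction that the labels do not state. If they are ratios of Cy5 to Cy3, a genotype difference changes sign with the dyes, and if they are ratios of mutant to wild type it keeps its sign. Each probe was therefore described by its means in both dye orientations and by 2 components. The dye-switching component is 0.5 times the mean on arrays with Cy5-labelled mutant RNA minus 0.5 times that on arrays with Cy3-labelled mutant RNA. It is the genotype difference under the first reading, positive meaning higher in the mutant, and a dye effect of the probe under the other reading. The shared component is the mean of both orientation means and is the genotype difference under the other reading. Single arrays held values for 7843 to 10515 probes. Their medians lay between -0.01 and 0.02, and arrays 10 and 9 had the widest spread of all (interquartile ranges of 0.892 and 0.731, against 0.386 at the lowest). Of the brain markers listed, 8 of 14 neuronal, 4 of 10 astrocyte and 2 of 11 oligodendrocyte genes had tested probes, but ratios hold no expression level, so the tissue could not be checked further.

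The 250 bases before each RefSeq start site are shown because both genes are themselves controlled by stress in other settings, and the core letters of the elements bound by factors of this pathway can be read in them. Capitals mark ACGT, the core shared by many sites of leucine zipper (bZIP) factors, CCAAT and CCACG, the outer parts of the ER stress response element, and TGACG, a part of the cAMP response element, each on either strand. TGACG and ACGT overlap in the longer elements TGACGTGG and TGACGTCA. The Xbp1 sequence is chr11:5520391-5520640 and the Atf4 sequence is chr15:80254934-80255183, both on the plus strand of GRCm38.p6.
Xbp1: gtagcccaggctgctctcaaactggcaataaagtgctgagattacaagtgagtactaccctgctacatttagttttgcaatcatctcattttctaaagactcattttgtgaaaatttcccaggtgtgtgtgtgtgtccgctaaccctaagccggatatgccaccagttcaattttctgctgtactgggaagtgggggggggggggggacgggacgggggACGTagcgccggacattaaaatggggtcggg
Atf4: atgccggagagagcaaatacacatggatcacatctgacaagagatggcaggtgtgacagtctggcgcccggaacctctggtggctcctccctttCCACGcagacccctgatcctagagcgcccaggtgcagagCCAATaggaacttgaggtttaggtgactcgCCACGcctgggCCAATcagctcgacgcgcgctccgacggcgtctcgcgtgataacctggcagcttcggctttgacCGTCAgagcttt
Xbp1 held 1 ACGT, from base 31 to base 28 before the start, and none of the other marked motifs. Atf4 held CCAAT at 2 places and CCACG at 2 places, together with 1 TGACG on the opposite strand, and no ACGT. Of 32851 RefSeq sequences of the same length, 26.9% held ACGT, 33.8% CCAAT, 28.3% CCACG and 17.8% TGACG, so these short motifs are common. The full ER stress response element, CCAAT and CCACG with 9 free letters between them, was found in neither gene and in 0.113% of all these sequences. Likewise the unfolded protein response element TGACGTGG (0.563%), the full cAMP response element TGACGTCA (1.55%), the ER stress response element II, ATTGG and CCACG with 1 free letter between them (0.0304%), and the amino acid response core TGATGNAA (3.45%) were found in neither. A match describes letters in this window only.

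The Xbp1 probe gave a value on all 15 arrays, as did 20.5% of all probes, and its sign changed with the dyes on every array. With Cy5-labelled mutant RNA, the lowest, median and highest log2 ratios were 0.62, 0.94 and 1.50, and with Cy3-labelled mutant RNA they were -1.26, -0.96 and -0.54. All 7 arrays of the first orientation thus lay above 0 and all 8 of the second below it, with a gap of 1.16 between the ranges. The means were 0.96 ± 0.29 (SD, n = 7) with Cy5-labelled mutant RNA and -0.90 ± 0.27 (SD, n = 8) with Cy3-labelled mutant RNA. The dye-switching component of Xbp1 was 0.93 ± 0.07 (SE), a 1.90-fold difference. Read as Cy5 over Cy3, this is a higher Xbp1 RNA level in O377 brains than in the wild-type pool. Xbp1 and Atf4 were chosen by their dye-switching components in an earlier look at the same arrays, so these values are given as a description and carry no test here. By size the Xbp1 component was number 14 of 8058 tested probes, whose median size was 0.08.

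The main Atf4 probe had values on 14 arrays, and its ratios lay on the opposite side from those of Xbp1 and were smaller. With Cy5-labelled mutant RNA they ran from -0.66 over a median of -0.14 to 0.03, and with Cy3-labelled mutant RNA from 0.03 over 0.36 to 0.60. The ranges of the orientations only just failed to overlap, by 0.0012. Arrays 5 and 6, with Cy5-labelled mutant RNA, stood just above 0, at 0.03 and 0.01, and so were the only ones off the side of the other 12. The means were -0.21 ± 0.26 (SD, n = 6) with Cy5-labelled mutant RNA and 0.36 ± 0.20 (SD, n = 8) with Cy3-labelled mutant RNA. The dye-switching component of Atf4 was -0.28 ± 0.07 (SE), a 1.22-fold difference, which read as Cy5 over Cy3 is a lower level in O377 brains. Its size ranked number 534 of the 8058 probes. The second Atf4 probe had a value on 1 array only, -0.31 on array 10 with Cy5-labelled mutant RNA, which is the array where the main probe had none. The mean of both probes as 1 gene gave a component of -0.29.

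As background, 0.645% of all tested probes were past the threshold of an adjusted p of 0.05 in the dye-switching component (0.335% on the positive side). Orientation ranges that do not overlap occurred in 0.906% of tested probes. Both genes have such ranges, which is only a description, since they were picked by their dye-switching components.

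**Figure D1:**
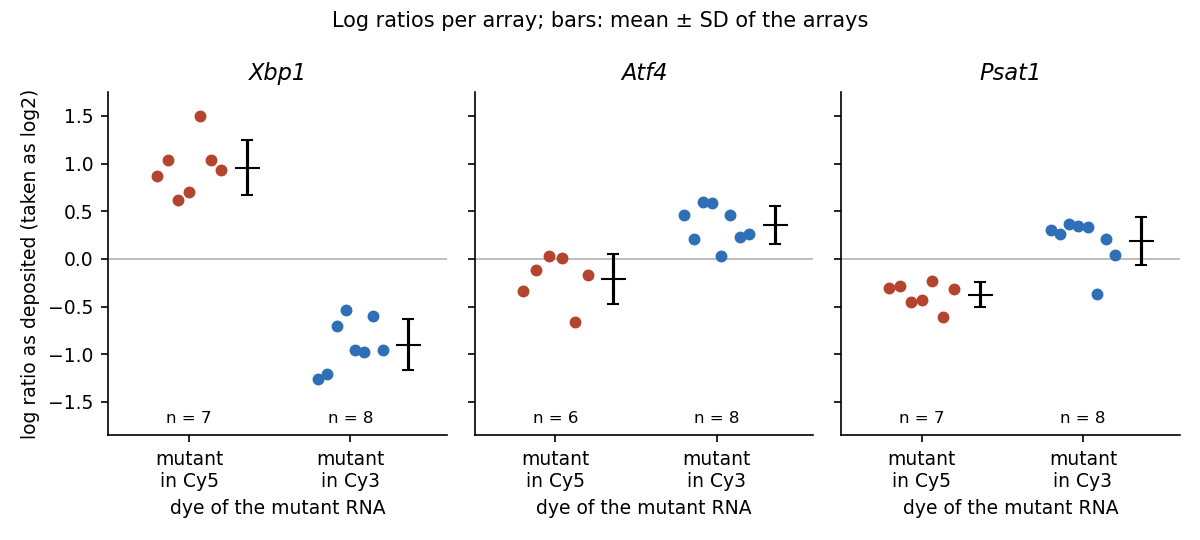
Each point is the deposited log ratio (taken as log2) of 1 array for Xbp1, Atf4 and the Atf4 target gene Psat1, with arrays with Cy5-labelled mutant RNA on the left of each panel and those with Cy3-labelled mutant RNA on the right. Bars give mean ± SD. Xbp1 lies above 0.62 with Cy5-labelled mutant RNA and below -0.54 with Cy3-labelled mutant RNA, while Atf4 and Psat1 lie mostly on the opposite sides.

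The size of the Xbp1 ratio was uneven along the array order, which is described here without a test. Arrays are numbered in accession order, and in that order the dyes alternate in sets, so that every run of 4 arrays holds both orientations. With the sign turned on arrays with Cy3-labelled mutant RNA, the first 4 arrays had 0.86, 1.04, 1.26 and 1.20. The next 4 had 0.62, 0.70, 0.71 and 0.54, all below every value of the first 4. Arrays 9 to 12 had 1.50, 1.04, 0.95 and 0.97, and arrays 13 to 15 had 0.94, 0.60 and 0.96. The means of the 4 runs were 1.09 ± 0.18, 0.64 ± 0.08, 1.12 ± 0.26 and 0.83 ± 0.20 (SD, n = 4, 4, 4 and 3 arrays). For Atf4 the run means were -0.28 ± 0.15, -0.29 ± 0.36, -0.39 ± 0.32 and -0.22 ± 0.05 (SD, n = 4, 4, 3 and 3), so its second run had the widest spread. As deposited, that run held 0.03 and 0.01 with Cy5-labelled mutant RNA, against 0.60 and 0.59 with Cy3-labelled mutant RNA. What a run stands for is not stated, and 15 arrays drew on 5 mutant brains, so p-values over arrays are too small as tests of animals. With 1 value per run and orientation the components were 0.93 ± 0.09 (SE) for Xbp1 and -0.31 ± 0.09 for Atf4.

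**Figure D2:**
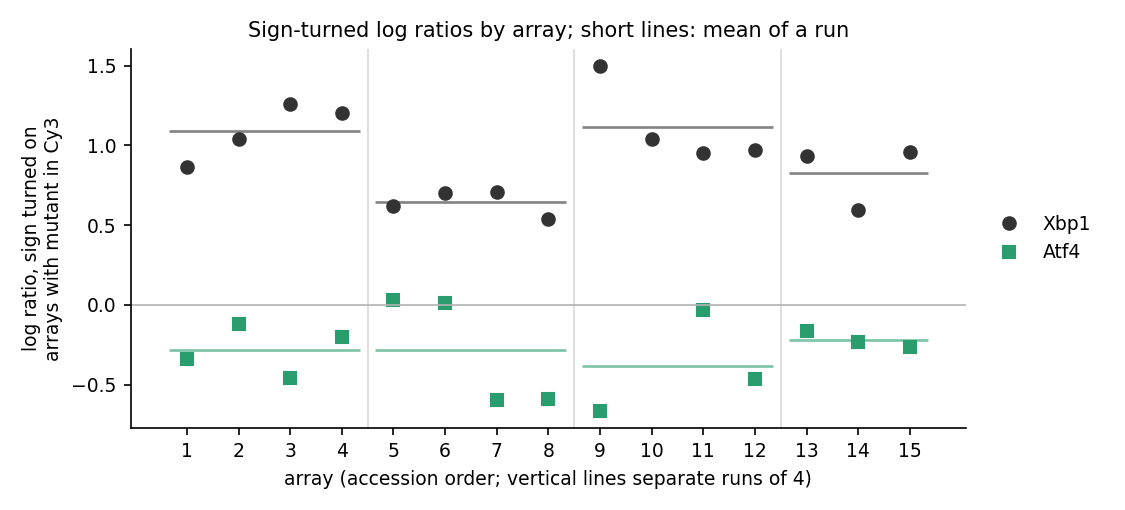
Log2 ratios of Xbp1 (circles) and Atf4 (squares) per array in accession order, with the sign turned on arrays with Cy3-labelled mutant RNA. Short lines are means of runs of 4 arrays. Xbp1 stays between 0.54 and 1.50 and is lowest as a run on arrays 5 to 8, where its mean is 0.64.

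The shared component, which played no part in picking the genes, was tested with limma over all 8058 probes. For Xbp1 it was 0.03 ± 0.07 (SE, 95% confidence interval from -0.13 to 0.19), with a limma adjusted p of 0.916. For Atf4 it was 0.07 ± 0.07 (95% confidence interval from -0.07 to 0.22), adjusted p = 0.73 by limma. Neither gene passed the threshold in this component, so the means of opposite sign in both orientations were not shown to differ in size. Read as ratios of mutant to wild type, these are intervals for the genotype difference over arrays, reaching no further than 0.19 for Xbp1 and 0.22 for Atf4. They cover the spread of arrays only, so they do not bound the difference between animals. No probe passed the threshold in this component, 0% of 8058, while 765 probes, 9.49%, had a limma p under 0.05 before adjustment and 107 passed with robust regression. The spread of the arrays around their orientation means was 0.27 for Xbp1 and 0.23 for Atf4, below the median of 0.34 over all tested probes. The wild-type pool is 1 sample, so its own spread is left out of every p and SE.

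**Figure D3:**
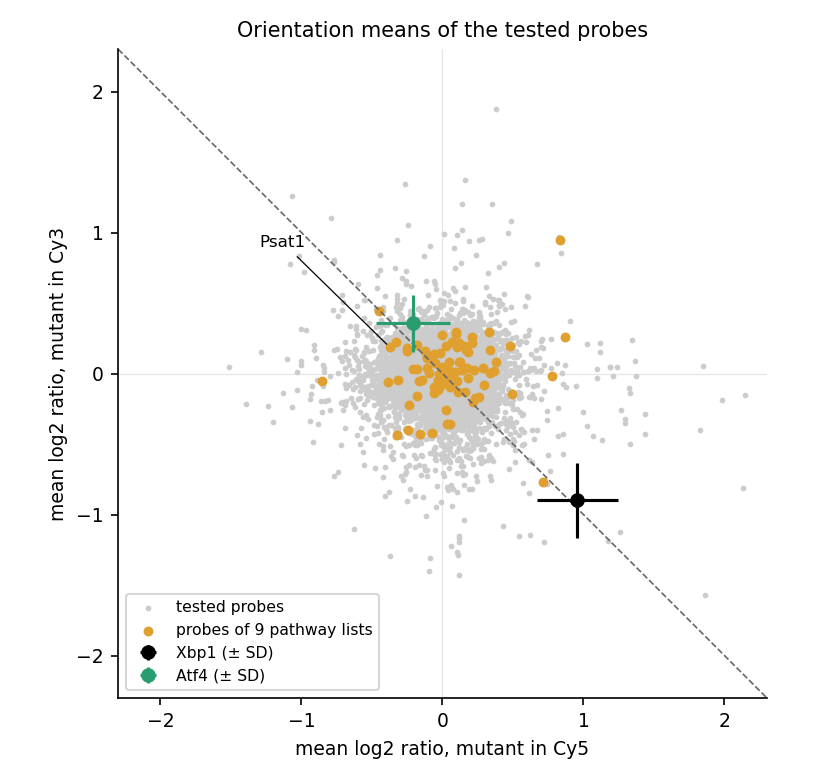
Mean log2 ratio of each tested probe on arrays with Cy5-labelled mutant RNA (x axis) against arrays with Cy3-labelled mutant RNA (y axis), with 2 probes beyond the axes left out. The dashed line marks equal sizes of opposite sign, where the shared component is 0. Xbp1 (0.96 and -0.90) and Atf4 (-0.21 and 0.36) lie near the line on opposite sides of the centre, and the probes of 9 pathway lists lie mostly near the centre.

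Xbp1 and Atf4 had opposite signs on 12 of the 14 arrays with both values. This count is only a description, since both genes were chosen by their dye-switching components. Whether they also varied together within an orientation was tested apart. Over 6 arrays with Cy5-labelled mutant RNA, Pearson's r was -0.90 (exact permutation p = 0.025, two-sided, adjusted p = 0.1 over the 4 correlations computed) and Spearman's rho was -0.77 (exact permutation p = 0.103, adjusted p = 0.206). Over 8 arrays with Cy3-labelled mutant RNA, r was 0.31 (exact permutation p = 0.446, adjusted p = 0.536) and rho was 0.26 (exact permutation p = 0.536, adjusted p = 0.536). The first of these rested on few arrays, since r was -0.60 without array 9 (exact permutation p = 0.283) and -0.36 over the 4 arrays left without the 2 farthest from the Xbp1 median. In the other orientation r was 0.28 without the 2 farthest. No relation between both genes within an orientation passed the correction.

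**Figure D4:**
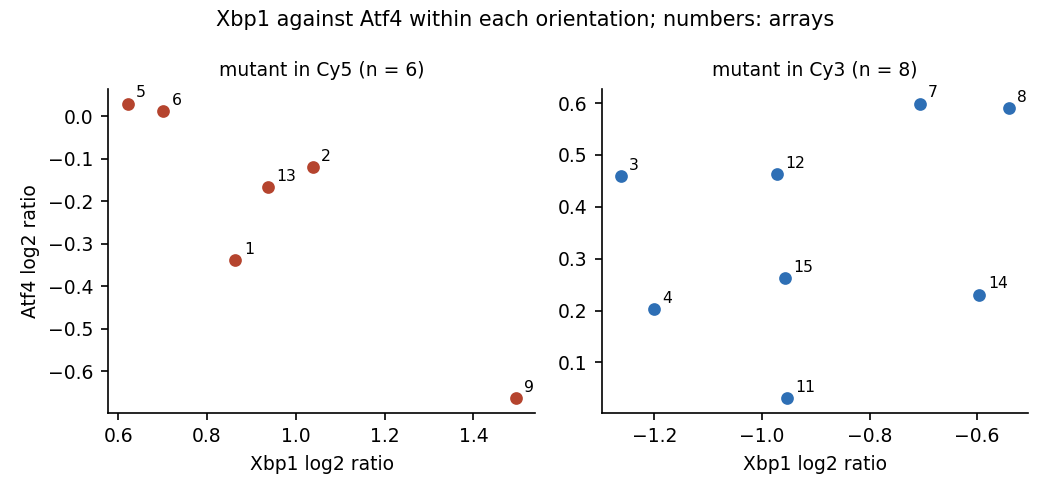
Atf4 log2 ratio against Xbp1 log2 ratio, 1 point per array with its number, for 6 arrays with Cy5-labelled mutant RNA (left) and 8 with Cy3-labelled mutant RNA (right). On the left array 9, at 1.50 and -0.66, lies far from the other 5, and on the right there is no clear slope (r = 0.31).

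The other genes of both stress arms were read from 9 lists with 239 genes, of which 86 had tested probes (95 probes). Of these 95 probes 1 was past the threshold in the dye-switching component, Psat1, beside 0.645% of all tested probes, and none was in the shared component. Before adjustment 6 of the 95, 6.32%, had a dye-switching p under 0.05, beside 9.57% of all tested probes, and 12, 12.6%, had a shared p under 0.05, beside 9.49% of all. The median dye-switching component of the 95 probes was 0.02, beside 0.01 over all tested probes. None of the 95 was as large in size as Xbp1, beside 0.161% of all tested probes that were larger. Of the 95, 6 were larger than Atf4, beside 6.61% of all tested probes. The sensor genes Ern1, Eif2ak3 and Atf6 had no tested probe. The 2 tested members of that list were Traf2, an adaptor that binds IRE1, at -0.11 ± 0.07 (SE) and Creb3l2, an ER-anchored bZIP factor, at -0.04 ± 0.13.

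Genes of the kinds that Xbp1 is known to activate were read list by list, and none was past the threshold, beside 0.645% of all tested probes. Among ER chaperones and folding enzymes, 9 probes of 8 genes were tested, 3 positive and 6 negative, with a median of -0.06 and 0 past the threshold. Hspa5 (BiP), the main ER chaperone and sensor partner, averaged 0.10 with Cy5-labelled mutant RNA and 0.28 with Cy3-labelled mutant RNA, a dye-switching component of -0.09 ± 0.09 (SE, adjusted p = 0.79 by limma). Its shared component was 0.19 ± 0.09 (adjusted p = 0.524). Manf, a neurotrophic factor released under ER stress, had -0.19 ± 0.13, the disulfide isomerase Pdia4 had 0.10 ± 0.17, and the cochaperone Dnajc3 had 0.19 ± 0.14 on 1 probe and -0.10 ± 0.18 on another, so its probes disagreed in sign.

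In ER-associated degradation, 6 probes were tested, 5 positive and 1 negative, with a median of 0.03 and 0 past the threshold. Ube2j1, an ER-bound ubiquitin-conjugating enzyme, had the largest component of all these lists, 0.74 ± 0.26 (SE), from means of 0.71 on 4 arrays with Cy5-labelled mutant RNA and -0.77 on 5 with Cy3-labelled mutant RNA. It missed the threshold (adjusted p = 0.39 by limma), and 7 of its 9 values, with the sign turned for Cy3-labelled mutant RNA, were positive. The others lay close to 0, with Os9, a lectin of this pathway, at 0.07 ± 0.07, the channel protein gene Derl3 at 0.04 ± 0.08 and Nploc4, a cofactor of the extracting ATPase, at -0.08 ± 0.18.

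For entry into the ER and transport to the Golgi, 31 probes of 25 genes were tested, 21 positive and 10 negative, with a median of 0.03 and 0 past the threshold. The receptor subunit gene Srprb had 0.21 ± 0.06 (SE, adjusted p = 0.196 by limma), with its other 2 probes at 0.11 and 0.14. Spcs1, a signal peptidase subunit, was at -0.40 ± 0.13 (adjusted p = 0.286), and its means of -0.86 with Cy5-labelled mutant RNA and -0.05 with Cy3-labelled mutant RNA were unequal in size (shared component -0.45 ± 0.13, adjusted p = 0.382). The oligosaccharyltransferase gene Stt3a was at -0.28 ± 0.12 (adjusted p = 0.469). Srp72, of the signal recognition particle, was at 0.40 ± 0.29 on 1 probe, where array 1 held 3.97 and the next highest array of that orientation 0.49, and at 0.19 ± 0.26 on another.

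**Figure D5:**
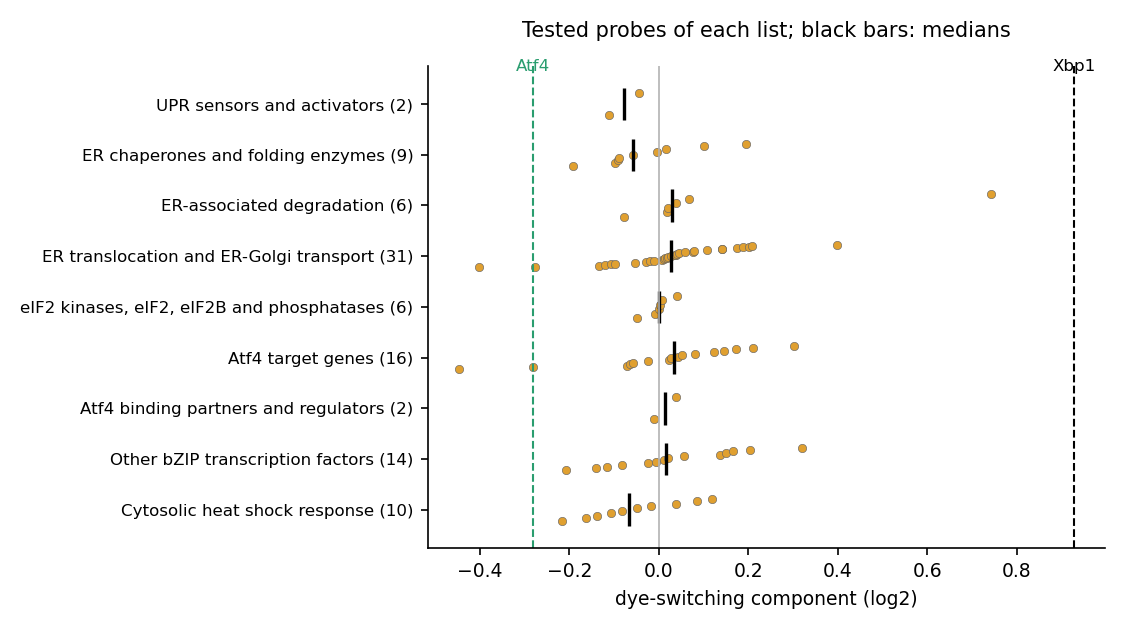
Dye-switching component (log2) of each tested probe, by list from sensors at the top to the heat shock response at the bottom, with the number of tested probes in brackets and black bars at the medians. Genes in more than 1 list appear in each. Dashed lines mark Xbp1 at 0.93 and Atf4 at -0.28, and no list median lies beyond -0.08 or 0.03.

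On the Atf4 arm, the machinery that controls eIF2 lay close to 0. The 6 tested probes ran from -0.05 to 0.04, with a median of 0.00. They include Eif2a (-0.0007), which does not encode a subunit of eIF2. The other listed genes were not tested. Ppp1r15a (GADD34), the phosphatase subunit that reverses eIF2 phosphorylation, was at 0.04 ± 0.06 (SE), Eif2ak2, the kinase PKR, at -0.05 ± 0.09, and the eIF2B subunit gene Eif2b4 at 0.01 ± 0.06. Impact, an inhibitor of the eIF2 kinase GCN2 with high levels in neurons, was at 0.00 ± 0.06, but averaged 0.17 in both orientations (shared component 0.17 ± 0.06, adjusted p = 0.418 by limma). Of proteins that bind or regulate Atf4, 2 genes were tested. The GABA-B receptor gene Gabbr1 was at -0.01 ± 0.06, with a shared component of -0.17 ± 0.06 (adjusted p = 0.418), and Fbxw11, of a ubiquitin ligase, was at 0.04 ± 0.13.

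Of 16 tested Atf4 target genes, 1 passed the threshold, on the negative side, where 0.31% of all tested probes did. This was Psat1, the phosphoserine aminotransferase of serine synthesis, and its component of -0.28 ± 0.06 (SE) was within 0.01 of that of Atf4 (limma adjusted p = 0.0401). Its log2 ratios ran from -0.61 over a median of -0.31 to -0.23 with Cy5-labelled mutant RNA, and from -0.37 over 0.28 to 0.37 with Cy3-labelled mutant RNA. All 7 arrays of the first orientation were below 0, and 7 of 8 of the second above it, the exception being array 12. The means were -0.37 ± 0.13 (SD, n = 7) with Cy5-labelled mutant RNA and 0.19 ± 0.25 (SD, n = 8) with Cy3-labelled mutant RNA. The component lay between -0.32 and -0.26 in all 15 fits that left out 1 array, while the adjusted p by limma ran from 0.00377 without array 12 to 0.0968 without array 7. The call was thus near the threshold: it held in 2 of these 15 fits, and with 1 value per run and orientation the component was -0.28 with an adjusted p of 0.345.

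The Atf4 targets lay on both sides of 0. Of the 16 probes 10 were positive and 6 negative, with a median of 0.03. Stc2, a secreted stanniocalcin, was further on the negative side than Psat1, at -0.45 ± 0.22 (SE, 9 arrays, adjusted p = 0.56 by limma). On the positive side were Nupr1, a small stress-induced nuclear protein gene, at 0.30 ± 0.16 (adjusted p = 0.591) and Lars, the leucyl-tRNA synthetase gene, at 0.21 ± 0.10 (adjusted p = 0.539). Nupr1 averaged 0.87 on 4 arrays with Cy5-labelled mutant RNA and 0.26 on 8 with Cy3-labelled mutant RNA. Its shared component was 0.57 ± 0.16 (adjusted p = 0.382). The first mean leans on array 9, which held 2.29, while the next highest array of that orientation held 0.587. Ddit4, an inhibitor of mTOR signalling, had means of 0.83 ± 1.40 and 0.95 ± 2.06 (SD) on 4 arrays each. Its shared component was 0.89 ± 0.50 (adjusted p = 0.58). The arrays were far apart, from -0.44 to 2.46 with Cy5-labelled mutant RNA and from -0.45 to 3.94 with Cy3-labelled mutant RNA. The amino acid synthesis enzyme genes Phgdh and Psph, which act with Psat1 in 1 pathway, and Ddit3 and Trib3 had probes with too few values to be tested.

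Other bZIP factors, some of which can pair with Atf4, were tested with 14 probes of 13 genes, 8 positive and 6 negative. Their median was 0.02 and 0 were past the threshold, beside 0.645% of all tested probes. The largest was Batf, a factor of lymphocytes, at 0.32 ± 0.16 (SE, adjusted p = 0.56 by limma). The small Maf gene Mafk was at 0.20 ± 0.09 (adjusted p = 0.508) and its partner Bach2 at -0.21 ± 0.10 (adjusted p = 0.532), while the 2 probes of Nfe2l1 were at 0.17 ± 0.18 and -0.01 ± 0.11. In the shared component 9 of the 14 probes were positive and 5 negative, with a median of 0.02. The largest in size were the cAMP-responsive factor Crem at -0.38 ± 0.17 (adjusted p = 0.519) and Tef, of the circadian PAR family, at -0.29 ± 0.18 (adjusted p = 0.594). The lowest adjusted p by limma was that of Atf3 (0.344), at 0.24 ± 0.06, which passed the threshold with robust regression only. The heat shock response of the cytosol, a separate stress arm, had 10 tested probes of 9 genes, 3 positive and 7 negative, with a median of -0.07 and 0 past the threshold. Its inducible chaperone Hspa1a was at -0.14 ± 0.12 and the cochaperone genes Dnajb1 and Dnajb6 were at -0.16 ± 0.21 and 0.08 ± 0.27. The 2 probes of Bag3 were at -0.22 and 0.12.

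Xbp1 RNA is high in secretory cells, so markers of such cells were read beside it, and in tissue RNA a change in cells cannot be told apart from a change in RNA per cell. Choroid plexus had 0 tested probes of 11 genes. Among B and plasma cell markers 3 of 10 genes were tested, with Cd79a at -0.02 ± 0.09 (SE), the plasma cell syndecan Sdc1 at -0.05 ± 0.07 and Pou2af1 at 0.24 ± 0.20. Pituitary hormone genes were at 0.38 ± 0.19 for Prl, 0.03 ± 0.10 for Gh and -0.26 ± 0.12 for Pomc, with none past the threshold and adjusted p of 0.542, 0.957 and 0.491 by limma. Of 8 neuronal marker probes 1 was past the threshold, beside 0.645% of all tested probes. It was Thy1, a surface glycoprotein of neurons, at -0.53 ± 0.11 (adjusted p = 0.0276 by limma). Thy1 stayed past it in 20 of 29 alternatives, with values from -0.58 to -0.43, and the list median was 0.02. The median was -0.05 for 6 astrocyte probes, -0.04 for 3 oligodendrocyte probes and -0.05 for 2 endothelial probes, and the single microglial probe, C1qb, was at -0.05. Whether cell makeup had a part in the Xbp1 and Atf4 values was not tested.

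On the positive side of the dye-switching component Xbp1 was number 8 of 2484 probes with 1 gene symbol. Just larger were Nedd4l at 0.95 ± 0.13 (SE), Spg20 at 1.09 ± 0.68 and Atmin at 1.11 ± 0.61, and just smaller were Pigk at 0.91 ± 0.20, Kbtbd11 at 0.90 ± 0.52 and S100a5 at 0.88 ± 0.17. The SE of Xbp1, 0.07, was smaller than that of each of these 6. Atf4 was number 140 of 2291 on the negative side, with Arih1 (-0.28 ± 0.11), Rgs11 and Serpina3n next above it in size and Cflar (-0.28 ± 0.07), Psat1 and Tnfrsf1b next below. All 6 were at -0.28, so its place among them is not resolved by the SE of 0.07.

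The genes whose ratios ran most like those of Xbp1 over the 15 arrays were found by Pearson's r among 6975 probes with at least 12 shared arrays. All arrays share the wild-type pool, and a large r mostly reflects a common change of sign with the dyes. The highest r were those of Atp5g2 (0.94), a subunit of ATP synthase, Capn3 (0.94), a calcium-dependent protease, Zswim7 (0.93), Mrpl48 (0.89) and Mettl1 (0.89). The lowest were those of Ifi27 (-0.97), an interferon-induced gene, Lpl (-0.95), the lipoprotein lipase, Pnliprp1 (-0.94), Pigf (-0.92) and Nt5c2 (-0.92). For Atf4, over 13 or 14 arrays, the highest were Ccdc186 (0.86), Wdr11 (0.85), Me1 (0.84), Cdca8 (0.84) and Lpl (0.83), and the lowest Mettl1 (-0.91), Acta2 (-0.90), Slc35a5 (-0.90), Zswim7 (-0.88) and Atp5g2 (-0.88). Lpl, Mettl1, Zswim7 and Atp5g2 were thus near the extremes for both genes, with opposite sign.

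With the orientation means removed, other genes came first. For Xbp1 these were Prmt5 (r = 0.90), a protein arginine methyltransferase, the glutamate transporter gene Slc1a2 (0.90), Arnt2 (0.89), the sodium-calcium exchanger gene Slc8a2 (0.88) and Usp7 (0.87), and at the other end Chn1 (-0.87), Lmbrd1 (-0.86), H2bu2 (-0.83), Coa3 (-0.82) and Ddx27 (-0.81). For Atf4 they were Hacd3 (0.85), 1700071G01Rik (0.83), Atp5o (0.83), Slc29a3 (0.82) and Ube2r2 (0.81), and at the other end Arhgap17 (-0.92), Dlgap1 (-0.85), Mcat (-0.84), Oga (-0.83) and Faf1 (-0.83). The central 95% of r over all compared probes was from -0.63 to 0.71 for Xbp1 and from -0.69 to 0.64 for Atf4, so high values were frequent. Why they were frequent was not tested. Spearman's rank correlation kept few of these genes among its own 5 at each end. Of the 5 highest it kept 2 for either gene, with and without the orientation means. Of the 5 lowest it kept 0 for Xbp1 and 3 for Atf4 as deposited, and 2 for Xbp1 and 1 for Atf4 with the means removed.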

How the data were processed

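RNA of O377 homozygous brains and a wild-type pool was compared on 15 arrays with 2 colours. The authors deposited a processed log ratio of both channels for each spot, taken here as log2, since the largest size (12.3) is beyond the natural log of the widest ratio that scanners of 16 bits allow (11.1). Array medians lay near 0, which centring before deposit would give, but such a step is not stated. The method, the spot filter and the ratio's direction are not given in the sources used here. Scanner intensities were not analysed here.

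Gene names come from the platform annotation, brought up to date through gene identifiers (RefSeq GRCm38.p6). Of 20205 probes 11723 had 1 symbol. Values were used as deposited. Probes with 4 or more values in both dye orientations were fitted in limma 3.58.1 (R 4.3.3) with a dye term and eBayes, with Benjamini-Hochberg adjustment across these 8058 and a threshold of 0.05. The fit was tested on simulated data. Correlations used exact permutation (scipy 1.17.1), and figures matplotlib 3.10.9. Promoters come from RefSeq GRCm38.p6.

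The genes and lists were chosen with earlier results of these data known. Named are, per list, members past the threshold, the 4 largest dye-switching and the 2 largest shared components, the 3 rank neighbours on each side and the 5 most and least similar genes. Phgdh, Psph, Ddit3, Trib3, Ern1, Eif2ak3, Atf6 and Atf3 fall outside this rule. Replicates are arrays, so p-values cover only their spread, part or all of which may be technical. Alternatives changed centring, scaling, filters, weights, variance model, regression and arrays.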

Additional observations from a re-analysis of the deposited data

Results flagged for a closer look

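By Dixon's criterion neither Xbp1 nor Atf4 had an outlying array within a dye orientation, although array 9 held the highest Xbp1 and the lowest Atf4 value with Cy5-labelled mutant RNA. The criterion was run on 124 sets of 4 to 10 arrays, each of Xbp1, Atf4 or a named list probe in 1 orientation. Of these sets 18 (14.5%) had a single array past Dixon's 95% critical value. The measure is the distance of that array to its nearest neighbour, divided by the range of the set. List probes were named by the size of their components in these data, which can favour probes with an extreme array. A chance rate of 5% is therefore no yardstick for this share. Array 9 gave 5 of these. With Cy5-labelled mutant RNA it held 2.29 for Nupr1 (next value 0.587), 1.81 for Glul (0.435), 0.767 for Mbp (-0.0635), -0.679 for Eno2 (0.113) and -0.697 for Sdc1 (-0.0515).

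Array 13, of the same orientation, held -2.63 for Dnajb1 (next value -0.405), -2.32 for 1 probe of Bag3 (-0.258) and 0.392 for S100b (-0.0952). So 2 of its 3 are heat shock probes at their lowest, but on this array the other Bag3 probe held 0.0997 and Hspa1a held -0.0657. Also with Cy5-labelled mutant RNA, array 1 held 3.97 for Srp72 (0.486) and array 10 held 0.710 for Impact (0.244).

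With Cy3-labelled mutant RNA, array 12 held -0.368 for Psat1 (next value 0.0437), the only array on the other side for this gene. Array 4 held -1.04 for Aldh1l1 (-0.00987) and 0.761 for another Mbp probe (0.294). Array 11 held 1.19 for Creb3l2 (0.369) and -1.22 for Map2 (-0.379). Array 3 held -0.439 for Gap43 (-0.00364), array 14 held 0.358 for Os9 (0.0943) and array 15 held -1.11 for Manf (0.130).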

How the results depend on the processing

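Xbp1 and Atf4 kept the sign of their dye-switching components under every alternative run, from 0.85 to 0.96 for Xbp1 (29 alternatives) and from -0.31 to -0.24 for Atf4 (28, since Atf4 has no value on 1 array). Their shared components stayed short of the threshold in all, from -0.08 to 0.06 for Xbp1 (limma adjusted p from 0.691 to 0.992) and from 0.05 to 0.14 for Atf4 (0.273 to 0.897). The background moved more. The 52 probes past the threshold in the dye-switching component (27 positive, 25 negative) became 81 with array weights (41 negative), 204 with robust regression (95 positive, 109 negative) and 19 with 1 value per run and orientation (11 positive, 8 negative), and in the shared component 0 became 107 with robust regression. Leaving out 1 array at a time gave 36 to 49 in all, 19 to 28 positive and 16 to 24 negative, the lowest negative count without array 11. Psat1 kept its sign throughout but missed the threshold in 17 of 29 alternatives, and with arrays scaled to 1 spread its adjusted p was 0.074. Thy1 passed in 20 of 29. For Xbp1 against Atf4 with Cy5-labelled mutant RNA, r went between -0.97 and -0.60 when arrays were left out singly, and was -0.36 without the 2 farthest. Of 60 named list probes 17 changed sign of the dye-switching component under some alternative. The cause of these moves was not tested. The number of arrays limits precision. Each ratio already compares mutant RNA with the wild-type pool on the same array. Arrays could not be matched further by brain, because array numbers come from accession order and the labels do not tell which brain an array holds.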
